A study of Mus musculus with 12 samples.

Results

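The immediate early genes described here are 10 genes chosen by name (*Fos*, *Fosb*, *Jun*, *Junb*, *Egr1*, *Nr4a1*, *Atf3*, *Ier2*, *Dusp1* and *Zfp36*) out of 56065 genes listed for whole mouse submandibular glands (SMGs). All 10 were found in the table, and all 10 were among the 17893 genes that passed the filter on low counts. The glands came from 12 mice aged 8 weeks, in 4 groups of 3: C57BL/6J females and males, called wild type (WT), and females and males of the line C57BL/6J-Pou2f3em1Cbwi/J, called knockout (KO). The line lacks *Pou2f3*, the transcription factor that tuft cells (chemosensory epithelial cells) require. The labels name no treatment, and whether the sequenced glands came from mice used elsewhere in the study is not given in the sources used here. All mice were obtained from Jackson Laboratory, and whether WT and KO mice were littermates is not given in the sources used here. The glands were removed after CO2 euthanasia and blood removal, then snap-frozen, and the time between death and freezing is not given either. The study asked how the glands of each sex differ when tuft cells are absent. Here that question is put to 10 genes, mouse by mouse.

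Immediate early genes are switched on within minutes of a stimulus, without new protein synthesis, by transcription factors that are already present in the cell. Growth factor, stress, calcium and cyclic AMP signals reach them through the mitogen-activated protein kinase (MAPK) cascades and through the factors SRF and CREB. Their transcripts are short-lived, so that levels follow recent signals. *Fos*, *Fosb*, *Jun* and *Junb* encode subunits of AP-1, a dimeric transcription factor. *Egr1* encodes a zinc finger factor, *Nr4a1* an orphan nuclear receptor, *Atf3* a stress-induced factor of the ATF/CREB family and *Ier2* a small nuclear protein. *Dusp1* encodes a phosphatase that inactivates MAPKs, and *Zfp36* encodes tristetraprolin, which speeds the decay of AU-rich messenger RNAs. The last 2 act as brakes on the response.

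The libraries held between 47032175 and 67882207 estimated counts, and the limit set by a count of 0 (up to 3 counts, counting error alone) corresponded to between 0.0442 and 0.0638 CPM (counts scaled to 1 common library total). Normalized counts below are counts adjusted by edgeR's TMM factors to 1 common library size. *Pou2f3* had 0 to 2 counts in WT females, 0 in each KO female, 0 to 10 in WT males and 0 to 3 in KO males, so that the deletion was not checkable at this depth. The acinar gene *Aqp5*, a water channel that marks the labelled tissue, had 4897 to 14861 counts in every library. In tissue as a whole, fewer cells of a type and less RNA per cell cannot be told apart.

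The promoters of 4 of these genes are shown because they carry the results that follow: *Fos* and *Fosb* varied most between mice, and *Jun* and *Nr4a1* differed between the sexes in both genotypes. Each line gives the 150 bases before the transcription start in RefSeq, read 5′ to 3′ on the gene's strand. The letters come from the RefSeq promoter table of GRCm38.p6 and were matched exactly, at 1 place each, to GRCm39. The positions on GRCm39 are chr12:85520514-85520663 on the plus strand for *Fos*, chr7:19043971-19044120 on the minus strand for *Fosb*, chr4:94940460-94940609 on the minus strand for *Jun* and chr15:101164577-101164726 on the plus strand for *Nr4a1*. Capitals mark matches to the motifs named in the next paragraph.
Fos: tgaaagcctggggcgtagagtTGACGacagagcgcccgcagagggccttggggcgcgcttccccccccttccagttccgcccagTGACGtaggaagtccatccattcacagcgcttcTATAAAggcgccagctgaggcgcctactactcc
Fosb: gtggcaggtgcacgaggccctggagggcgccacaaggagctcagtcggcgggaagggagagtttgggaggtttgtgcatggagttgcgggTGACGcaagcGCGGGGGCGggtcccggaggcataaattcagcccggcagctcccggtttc
Jun: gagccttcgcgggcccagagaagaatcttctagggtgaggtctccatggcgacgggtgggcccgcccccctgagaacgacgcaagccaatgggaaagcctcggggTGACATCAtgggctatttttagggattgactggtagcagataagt
Nr4a1: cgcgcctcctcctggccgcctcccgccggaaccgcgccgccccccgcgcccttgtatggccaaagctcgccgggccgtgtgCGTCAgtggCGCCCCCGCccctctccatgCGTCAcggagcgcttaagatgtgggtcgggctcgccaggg

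Motifs were searched on both strands from 250 bases before to 50 bases after the start. The table holds such a window for 8 of the 10 genes, and *Egr1* and *Ier2* are the others. The half-site of the cyclic AMP response element (CRE), TGACG, was found in 6 of the 8 (*Atf3*, *Dusp1*, *Fos*, *Fosb*, *Junb* and *Nr4a1*) and in 20.8% of all 32851 promoters in the table. The full palindrome TGACGTCA, which contains that half-site on each strand, was found in *Dusp1* alone of the 8 and in 1.79% of all promoters. The binding site of EGR proteins, GCGGGGGCG, was found in *Fosb*, *Nr4a1* and *Zfp36*, or 3 of the 8, against 2.91% of all. The AP-1 site TGACTCA was found in 0 of the 8 and in 5.20% of all, whereas the variant TGACATCA was found in *Jun* and in 3.62% of all. The CArG box, the site of SRF, was found in *Zfp36* and in 1.63% of all, and TATAAA in *Fos* and *Junb* and in 13.6% of all. These motifs were chosen after the sequences had been seen. A match is a description of letters, and no match says only that the letters are not in this window.

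The genes covered a wide range of levels. Per kilobase of exon, *Jun* had the highest mean level over the 12 libraries, 13.8 CPM per kb, followed by *Ier2* with 5.81 and *Junb* with 4.55. The exon length was the union of all annotated exons, 10903 bases for *Nr4a1* and 1524 for *Ier2*, so that this order depends on the annotation. Without division by length, group means of normalized counts were 1021 to 2468 for *Nr4a1*, 438 to 631 for *Ier2* and 494 to 785 for *Junb*. *Nr4a1*, *Zfp36*, *Egr1*, *Dusp1* and *Atf3* lay between 2.69 and 1.05 CPM per kb, *Fos* was at 0.920, and *Fosb* was lowest at 0.119. The means of *Fos* and *Fosb* rest much on KO male 2, at 5.84 and 0.750 CPM per kb. In KO males *Fos* had a mean of 2.49, above *Atf3* at 1.73, and in the other groups 0.378 to 0.418. *Fosb* had 3 to 289 counts per library and *Fos* 17 to 849, so that counting error weighs most on *Fosb*, and its 3 counts in 1 WT male are at the limit that a count of 0 allows.

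**Figure D1:**
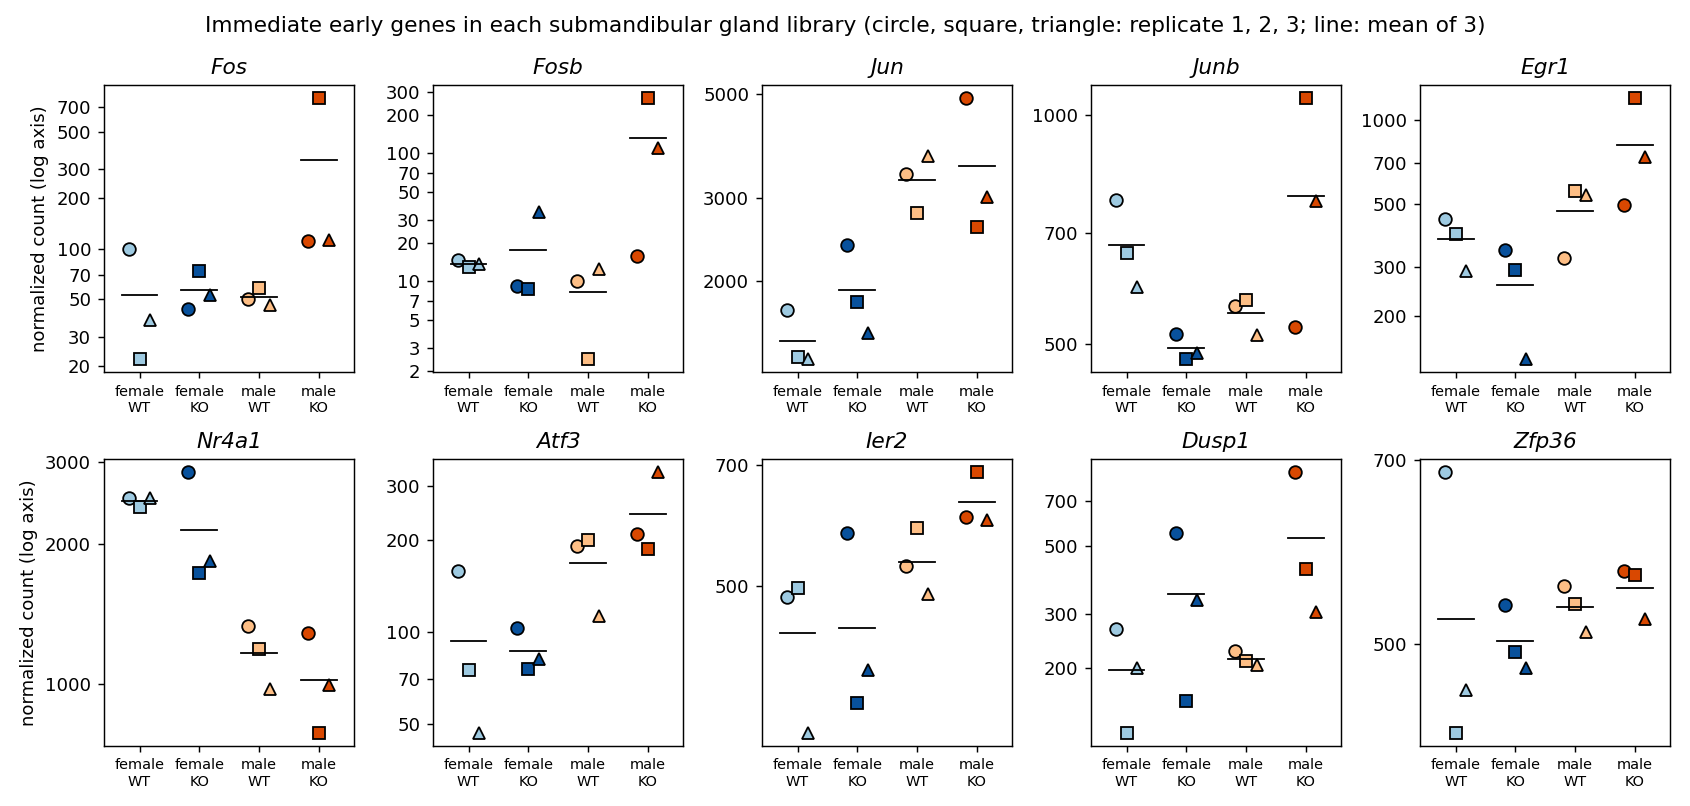
Normalized counts of the 10 immediate early genes in each of the 12 libraries, on log axes that differ between panels, with symbols for replicates 1, 2 and 3 and a line at the mean of each group. *Fos* and *Fosb* reach 796 and 271 in KO male 2, *Jun* is higher in the males, and *Nr4a1* is higher in the females.

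Among the AP-1 subunits, *Fos* (ENSMUSG00000021250.14, chr12:85520658-85524047) had normalized counts of 100.1, 22.0 and 37.7 in WT females and 43.9, 73.7 and 53.3 in KO females. In WT males the counts were 49.97, 58.3 and 46.2, and in KO males 111, 796 and 113. All 3 KO males were thus above all 9 other mice, and KO male 2 stood 7.01-fold above the next library. Its relative *Fosb* (ENSMUSG00000003545.4, chr7:19036621-19043976) had 14.6, 12.97 and 13.6 in WT females and 9.24, 8.73 and 34.7 in KO females. The male values were 9.99, 2.46 and 12.4 in WT and 15.9, 271 and 111 in KO. KO male 1 was close to the WT mice in *Fosb*, whereas KO males 2 and 3 were the highest of the 12.

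*Jun* (ENSMUSG00000052684.6, chr4:94937271-94940459) had normalized counts of 1737, 1376 and 1365 in WT females and 2388, 1802 and 1553 in KO females. In WT males it had 3381, 2798 and 3686, and in KO males 4910.2, 2612 and 3023. Every male was above every female, and the genotypes overlapped within each sex. *Junb* (ENSMUSG00000052837.8, chr8:85701113-85705359) had 775, 659 and 595 in WT females, 516, 478 and 487 in KO females, 562, 572 and 515 in WT males and 527, 1054 and 773 in KO males. The 3 KO females were below the 3 WT females, while KO males 2 and 3 were above the WT males and KO male 1 was among them. A long noncoding RNA, *Junos*, overlaps *Jun* on the opposite strand, and *Prdx2* overlaps *Junb* in the same way. On the same strand, which stranded libraries do not separate, *Gm56721* overlaps *Nr4a1*, and *Gm50274* and *Gm50275* overlap *Dusp1*. How far such overlaps touch the counts was not tested.

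Of the other transcription factors, *Egr1* (ENSMUSG00000038418.9, chr18:34992876-34998049) had 444, 393 and 291 in WT females, 344, 293 and 141 in KO females, 322, 559 and 541 in WT males and 499, 1194 and 739.9 in KO males. KO males 2 and 3 were again the highest of all mice, and the genotypes overlapped in both sexes. *Nr4a1* (ENSMUSG00000023034.8, chr15:101151980-101172681) showed the opposite order of the sexes to *Jun*. It had 2500.2, 2399 and 2505 in WT females, 2854, 1729 and 1832 in KO females, 1329, 1185 and 976 in WT males and 1284, 784 and 993 in KO males. No male reached the lowest female.

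*Atf3* (ENSMUSG00000026628.14, chr1:190902493-190950241) had 159, 75.2 and 46.7 in WT females, 103, 75.7 and 81.8 in KO females, 191, 200.4 and 113 in WT males and 209, 187 and 335 in KO males. The KO sexes did not overlap, and WT female 1 reached the male range. *Ier2* (ENSMUSG00000053560.6, chr8:85387960-85389483) stayed within a narrower range, from 332 in WT female 3 to 687 in KO male 2. The 3 KO males, at 605, 687 and 601, were above the WT males at 528, 587 and 488.

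The brakes differed in how far they varied. *Dusp1* (ENSMUSG00000024190.8, chr17:26724564-26781102) had 268, 123 and 200.4 in WT females, 553, 156 and 335 in KO females, 227, 211 and 205 in WT males and 873, 421 and 305 in KO males. Its highest mouse, KO male 1, was the lowest KO male in *Fos*, *Fosb*, *Junb* and *Egr1*. *Zfp36* (ENSMUSG00000044786.7, chr7:28076209-28079710) was the most even of the 10, with all libraries but WT female 1 (685) between 425 and 572.

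The first comparison was between the genotypes of 1 sex, made with the quasi-likelihood test of edgeR in a model of the 12 libraries, at a threshold of 0.05 on p-values adjusted over all genes tested by the Benjamini-Hochberg method. In females, 0 of the 10 genes passed, while 36.9% of all genes tested did. At an unadjusted p under 0.05, 1 gene did (*Junb*), against 46.3% of all genes. DESeq2 also called 0 of the 9 to which it gave an adjusted p, with no value for *Fos*, against 6875 of 20021 genes. *Junb* was the gene closest to the threshold, at 676 ± 90.9 (SD, n = 3) in WT and 494 ± 19.8 in KO females, a log2 fold change of −0.46 (SE 0.19, edgeR adjusted p = 0.0825). It was also the only 1 of the 10 whose female groups did not overlap, against 49.3% of all genes. *Dusp1* had the largest positive value, 0.81 (SE 0.44, edgeR adjusted p = 0.171), with 2 KO mice above the WT range and 1 within it, and it was at 0.26 (0.692) without KO female 1 and 1.13 (0.0453) without KO female 2. The median log2 fold change of the 10 was −0.02, beside 0.03 over all genes, and 5 of the 10 were above 0. None of the 10 was thus among the many genes of the female gland that passed.

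In males few genes of the gland passed the test, and most of the 10 had a higher level in KO without passing it. Again 0 of the 10 passed, with 0.235% of all genes passing. At an unadjusted p under 0.05, 5 did (*Fos*, *Fosb*, *Junb*, *Egr1* and *Dusp1*), against 11.5% of all genes, each with the higher level in KO. DESeq2 called 1 of 9 (*Fosb*, adjusted p = 0.000113) and gave no adjusted p to *Fos*. Over all genes it called 392 of 17067. The male groups did not overlap in 4 of the 10 (*Fos*, *Fosb*, *Ier2* and *Dusp1*, each higher in KO), against 14.5% of all genes. The median log2 fold change of the 10 was 0.52, beside −0.04 over all genes, and 9 of 10 were above 0, beside 42.5% of all genes.

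The male values were largest for the FOS proteins' genes. *Fosb* was at 8.28 ± 5.17 (SD, n = 3) in WT and 132 ± 129 in KO males, a fitted log2 fold change of 3.98 (SE 0.87, edgeR adjusted p = 0.107). *Fos* was at 51.5 ± 6.2 in WT and 340.1 ± 395 in KO males, with 2.72 (SE 0.71, edgeR adjusted p = 0.151). The SD of the KO males was about as large as their mean in both genes, and KO male 2 carried much of it. *Dusp1* followed with 1.31 (SE 0.43, edgeR adjusted p = 0.243), *Egr1* with 0.77 (SE 0.34, 0.408) and *Junb* with 0.51 (SE 0.19, 0.301), none of which passed.

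These male values depended on single mice. Without KO male 2 the log2 fold change was 1.13 for *Fos* (edgeR adjusted p = 0.766) and 2.92 for *Fosb* (0.505). Without KO male 1, in contrast, 3 of the 10 passed: *Fos* with 3.14 (0.0275), *Fosb* with 4.51 (0.00585) and *Junb* with 0.74 (0.0197). Over all genes 635 of 18575 passed in that setting, against 42 of 17893 with every library. *Junb* was at 0.24 (0.954) and *Egr1* at 0.39 (0.985) without KO male 2, and *Dusp1* at 0.76 (0.354) without KO male 1. Over the 21 other settings that gave a value, the male log2 fold change ran from 1.13 to 3.14 for *Fos* and from 2.92 to 4.51 for *Fosb*.

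**Figure D2:**
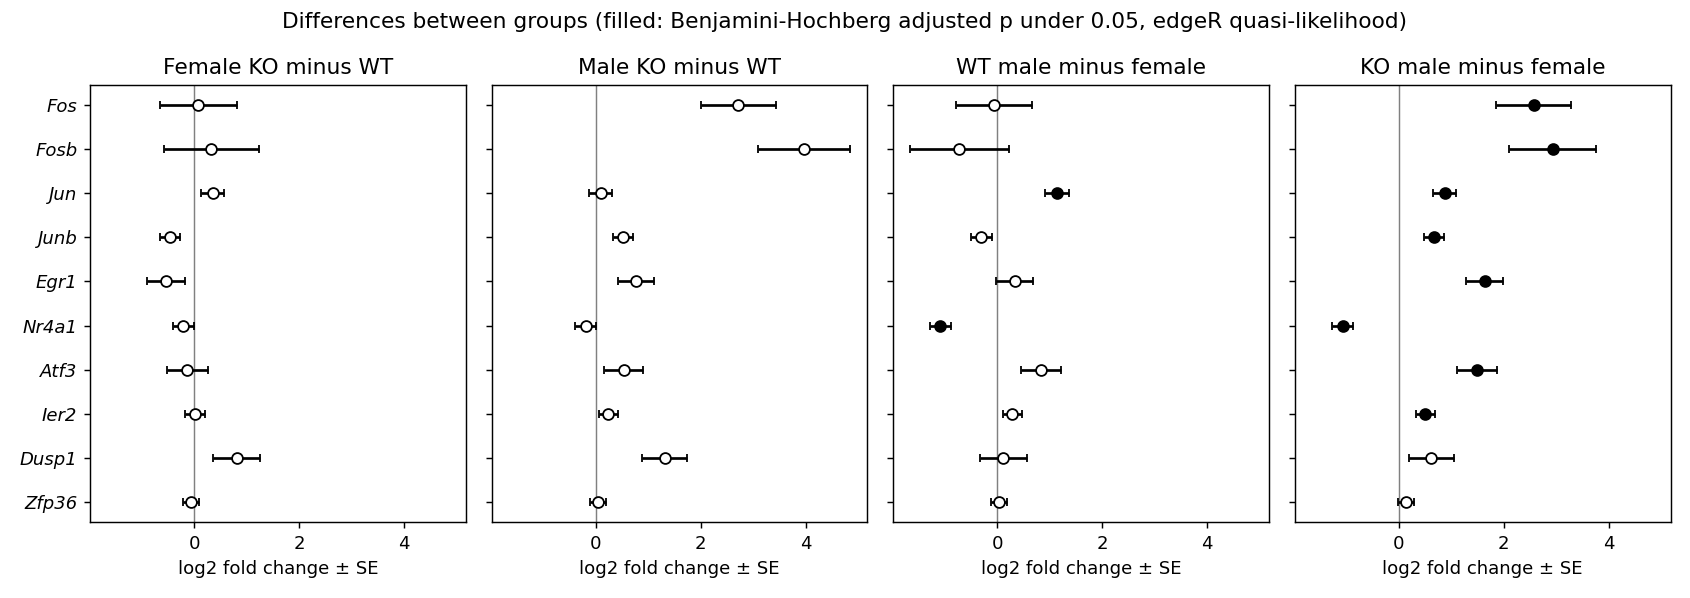
Log2 fold changes of the 10 genes with their standard errors in 4 comparisons, on 1 shared axis; filled points passed an adjusted p of 0.05 in edgeR's quasi-likelihood test. Points of the genotype comparisons are all open, and in KO mice 7 genes are filled on the side of the males.

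Whether the genotype difference itself differed between the sexes was tested as an interaction. It passed for 2 of the 10, *Fosb* and *Junb*, while 25.7% of all genes passed. For *Junb* the female difference minus the male difference was −0.97 (SE 0.27, edgeR adjusted p = 0.0228): the values were −0.46 in females and 0.51 in males. For *Fosb* it was −3.65 (SE 1.25, edgeR adjusted p = 0.0478), from 0.32 in females and 3.98 in males. *Egr1* (−1.31, SE 0.49, 0.0652) and *Fos* (−2.64, SE 1.01, 0.0696) lay just outside the threshold. The *Junb* call was made in 19 of 21 other settings and was lost without WT male 1 (0.0510) and without WT male 3 (0.0544). That of *Fosb* was made in 7 of 20, and without KO male 2 its value was −2.59 (0.128). With same-numbered mice treated as blocks, the *Fosb* call was lost and that of *Junb* was made. Without WT male 1 or without WT male 3, 0 of the 10 passed, and without KO male 1, 4 did (*Fos*, *Fosb*, *Junb* and *Egr1*). Over all genes 4606 of 17893 passed with every library. The counts were 2384 of 18518 without WT male 1, 2898 of 18444 without WT male 3 and 4746 of 18575 without KO male 1.

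Between the sexes of WT mice, 2 of the 10 genes passed, *Jun* and *Nr4a1*, while 36.5% of all genes did. *Jun* was at 3288 ± 451 (SD, n = 3) in males and 1493 ± 212 in females, a log2 fold change of 1.14 (SE 0.22, edgeR adjusted p = 0.00148). *Nr4a1* was at 1163 ± 177 in males and 2468 ± 59.7 in females, with −1.08 (SE 0.20, edgeR adjusted p = 0.00104). Both calls held in all 22 other settings. The sexes did not overlap in 4 of the 10, against 47.6% of all genes: *Jun* was higher in males, and *Nr4a1*, *Junb* and *Fosb* were lower, the last 2 without passing the test. Markers of several cell types moved with sex in these mice. The 7 granular duct genes summed to 64325 to 113070 CPM in WT males and 4742 to 8885 in WT females, with 6 of 7 higher and 1 lower in males. The 9 acinar genes summed to 11903 to 18469 and 48285 to 59220 CPM, with 6 of 9 lower in males, and the 5 myoepithelial and smooth muscle genes to 392 to 495 and 124 to 178 CPM, with 5 of 5 higher. *Dcpp2* of the acinar list had a count of 0 in some libraries. Also lower in males were 4 of 6 endothelial, 4 of 6 macrophage and 4 of 5 adipocyte genes, while 1 of 6 general duct genes was higher and 2 were lower. Of 5 nuclear noncoding RNAs, *Xist* among them, 2 were higher and 1 lower in WT males. The part of these cells and RNAs in the sex differences was not tested, in WT or in KO mice.

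In KO mice, 8 of the 10 differed between the sexes, against 43.5% of all genes, and 7 of them were higher in males, against 23.2% of all genes. The higher genes were *Fosb* (log2 fold change 2.93, SE 0.83, edgeR adjusted p = 0.0123), *Fos* (2.57, SE 0.71, 0.0110), *Egr1* (1.64, SE 0.35, 0.00241), *Atf3* (1.49, SE 0.38, 0.00717), *Jun* (0.88, SE 0.22, 0.00628), *Junb* (0.67, SE 0.19, 0.0135) and *Ier2* (0.51, SE 0.18, 0.0402). *Nr4a1* was lower in males, with −1.07 (SE 0.20, edgeR adjusted p = 0.00100), close to its value in WT mice. *Dusp1* (0.62, adjusted p = 0.264) and *Zfp36* (0.14, 0.478) did not pass. The sexes did not overlap in 7 of the 10 (*Fos*, *Jun*, *Junb*, *Egr1*, *Nr4a1*, *Atf3* and *Ier2*), against 54.8% of all genes. *Ier2* passed in 13 of 22 other settings and *Junb* in 19 of 22, and with upper-quartile scaling or the authors' factors neither of them passed. In these mice granular duct genes summed to 82542 to 108889 CPM in males and 5093 to 9955 in females, acinar genes to 9777 to 13126 and 30187 to 37507, and myoepithelial and smooth muscle genes to 291 to 443 and 95.1 to 115. Of these lists, 6 of 7 granular duct genes were higher and 1 lower in KO males, 4 of 9 acinar genes were lower and 5 of 5 myoepithelial genes were higher. Also higher in KO males were 4 of 5 adipocyte, 3 of 4 tested blood, 4 of 7 fibroblast and 3 of 6 macrophage genes, while 4 of 6 endothelial genes were lower, and of 6 general duct genes 4 were higher and 2 lower. Endothelial sums were 24.6 to 31.6 CPM in KO males and 36.9 to 38.9 in KO females. Of the 5 nuclear noncoding RNAs, 0 were higher and 2 lower in KO males.

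The sex difference in KO mice was in part a matter of KO male 2. Without it, 4 of the 10 passed (*Jun*, *Egr1*, *Nr4a1* and *Atf3*), and *Fos* was at 0.98 (edgeR adjusted p = 0.129), *Fosb* at 1.87 (0.0915) and *Junb* at 0.40 (0.0849). Over all genes 6510 of 18538 passed without that mouse, against 7790 of 17893 with every library. *Jun*, *Egr1*, *Nr4a1* and *Atf3* passed in all 22 other settings. The KO and the WT comparisons of the sexes use different mice, but each shares its mice with a genotype comparison, so that the 4 sets of values are not independent of each other.

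The spread between mice of a group was measured as the residual SD of log2 CPM about the group means over the 12 libraries, whose median over all genes tested was 0.239. *Fosb* had an SD of 1.21, above 98.3% of all genes, and *Fos* 0.988, above 97.0%. *Dusp1* with 0.661, *Atf3* with 0.549 and *Egr1* with 0.536 were above 88.4%, 81.8% and 80.9% of all genes. The remaining genes were near the middle: *Jun* 0.319, *Nr4a1* 0.289, *Junb* 0.272, *Ier2* 0.258 and *Zfp36* 0.194, the last being the only 1 of the 10 under the median. Single mice carried much of it, as a check chosen after seeing the data showed. The SD of *Fos* was 0.605 without KO male 2, that of *Fosb* 0.801 and of *Junb* 0.166 without KO male 1, and that of *Zfp36* 0.0737 without WT female 1. The highest *Fos* value of a group was 7.17 times the lowest in KO males and 4.54 times in WT females, but 1.68 times in KO females and 1.26 times in WT males. *Fosb* and *Fos* have few counts, and the part of counting error in their spread was not tested.

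The deviations did not fall on the same mouse for every gene. Of the 3 mice of a group, WT female 1 was highest in 8 of the 10 genes (the exceptions being *Nr4a1* and *Ier2*) and KO female 1 in 8 (the exceptions being *Fos* and *Fosb*). The share of all genes that was highest in each mouse was not counted, so that these counts have no background to be read against. No mouse of the WT males led in most genes, with WT male 2 highest in 5 of the 10. In KO males the genes parted: KO male 2 was highest in 5 genes (*Fos*, *Fosb*, *Junb*, *Egr1* and *Ier2*), KO male 1 in 4 (*Jun*, *Nr4a1*, *Dusp1* and *Zfp36*) and KO male 3 in *Atf3*. Among KO males, *Jun* and *Nr4a1* were lowest in the mouse in which *Fos* and *Fosb* were highest.

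**Figure D3:**
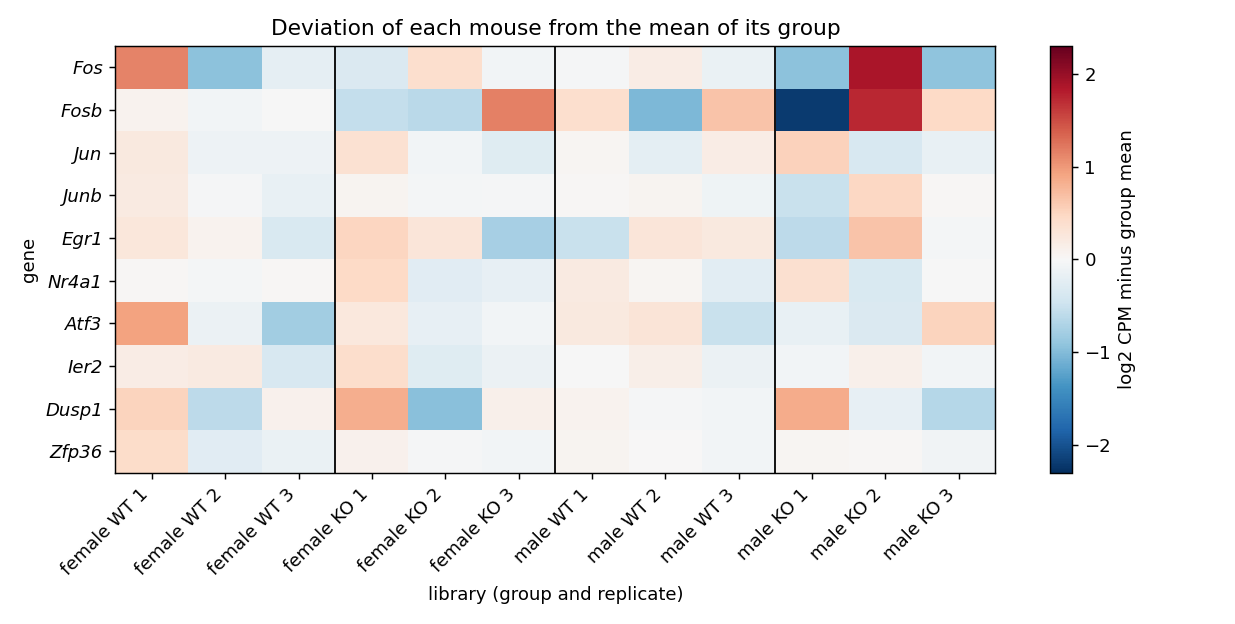
Log2 CPM of each library minus the mean of its group for the 10 genes (rows) in the 12 libraries (columns), red for higher and blue for lower. The strongest colours are in *Fos* and *Fosb*, with KO male 2 high in both, and the rows of *Zfp36* and *Ier2* are pale.

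The mean deviation of the 10 genes in each library was set beside the deviations of 11641 other genes with a mean count of at least 100. The most alike were *Lrrc32* (Pearson's r = 0.962 over 12 libraries), *Znfx1* (0.959), *Oasl2* (0.953), *Tfe3* (0.941), *Rnf213* (0.937), *Stk40* (0.922), *Zbed4* (0.922), *Adamtsl4* (0.918), *Nbl1* (0.912) and *Fnip2* (0.909). These are the highest of many values over few libraries that share depth and tissue make-up, and they are a description only. *Fos* and *Fosb*, with the largest deviations, weigh most in the mean of the 10. In KO male 2 they were at 1.87 and 1.74, beside a mean of 0.364. In KO male 1 they were at −0.95 and −2.20, beside a mean of −0.27, while *Jun*, *Nr4a1*, *Dusp1* and *Zfp36* were above their group mean there.

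In the 3 KO males, the adipocyte, macrophage, fibroblast and blood sums had the order of *Fosb*, *Junb* and *Egr1*. All of these were lowest in KO male 1 and highest in KO male 2. *Fos* was also highest in KO male 2, but nearly equal in KO males 1 and 3 (111 and 113). *Jun* and *Nr4a1*, and the acinar and myoepithelial sums, ran in the opposite order. Granular duct and nuclear noncoding sums were highest in KO male 3, and an order of 3 mice is a description only. The summed level of 5 adipocyte genes was 2.66, 32.0 and 15.5 CPM in KO males 1, 2 and 3 and 1.42 to 1.53 CPM in WT males. In females it was 3.25 to 41.5 CPM in WT and 2.40 to 4.88 CPM in KO. None of the 5 passed between male genotypes, all 5 passed in the interaction, and *Cidec* had a count of 0 in some libraries. KO male 2 was highest of the males in both *Fos* and fat markers. WT female 3 had the most fat signal of all (41.5 CPM), and its *Fos* count of 37.7 lay between those of the other WT females (22.0 and 100.1).

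The 6 macrophage genes summed to 75.9 to 134 CPM in KO males, 59.8 to 73.2 in WT males, 68.1 to 158 in WT females and 55.2 to 84.2 in KO females, with 0 of 6 passing between male genotypes. The highest sum was in WT female 1, the mouse that was also highest of its group in 8 of the 10 immediate early genes. The 7 fibroblast genes summed to 504 to 904 CPM in KO males and 410 to 452 in WT males, with 1 of 7 passing. Female sums were 329 to 475 in WT and 356 to 537 in KO. The 5 blood genes summed to 2.89 to 9.86 CPM in KO males and at most 3.47 in any other library. *Hba-a1*, *Hba-a2* and *Hbb-bt* had a count of 0 in some libraries. The 7 B and T cell genes were near 0 everywhere, at most 0.622 CPM in sum. In the interaction 3 of 6 macrophage, 2 of 4 tested blood and 1 of 7 fibroblast genes passed, each with the lower difference in females. Of the 5 nuclear noncoding RNAs, 2 passed with the higher difference in females. Of 9 acinar, 7 granular duct and 5 myoepithelial and smooth muscle genes, 0 passed there. Nuclear noncoding RNAs, 5 in number, summed to 6923, 9279 and 9546 CPM in KO males 1, 2 and 3 and 6411 to 8699 in WT males. Acinar sums in these KO males were 13126, 9777 and 10889 CPM, beside 11903 to 18469 in WT males. Myoepithelial and smooth muscle sums were 443, 291 and 340 CPM, beside 392 to 495. In these 3 lists 0 genes passed between male genotypes. The part of these cells and RNAs in the immediate early gene levels was not tested. A setting chosen after seeing the data left out KO male 2 and WT female 3. The male log2 fold change was then 1.14 for *Fos* and 2.95 for *Fosb*. WT female 3 is in neither male group, so that these values were bound to lie close to those without KO male 2 alone. KO male 2 was the highest male in the adipocyte sum and the highest mouse in both genes, so that this setting cannot tell the 2 apart.

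**Figure D4:**
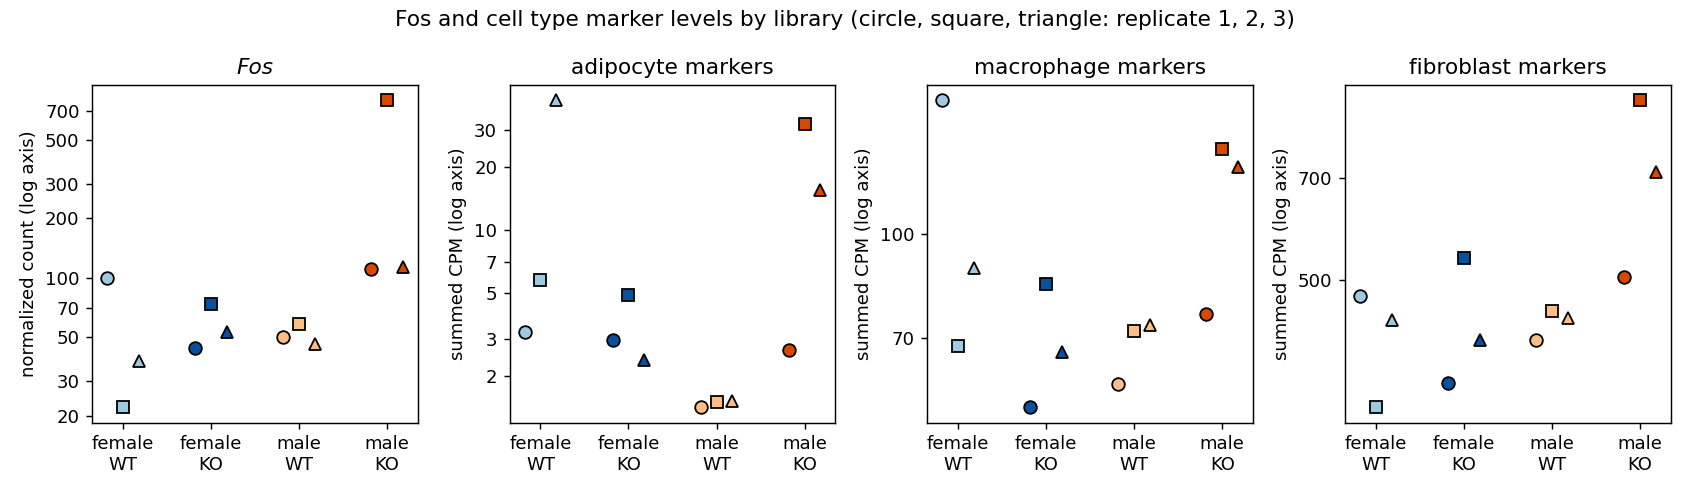
Normalized counts of *Fos* and summed CPM of the adipocyte, macrophage and fibroblast markers by library, on log axes. KO male 2 is the highest male in all 4 panels. WT female 3 is highest in the adipocyte panel and lies between the other WT females in *Fos*.

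Further genes of the early response were examined as lists. Of the other AP-1 family members, 8 of 9 were measured well enough to be tested. In females *Fosl2*, a late and more stable FOS relative, was the only 1 that rose in KO (log2 fold change 0.50, SE 0.12, edgeR adjusted p = 0.00772), and in males 0 of 8 passed. The median was −0.05 in females and 0.25 in males. The interaction passed for 0 of the 8. In WT mice 4 of the 8 passed between the sexes, all higher in males (*Fosl2*, *Maff*, *Mafg* and *Mafk*), against 36.5% of all genes passing in either direction. In KO mice 5 were higher in males, against 23.2% of all genes: those 4 and *Batf*. These genes are named with their values already seen. The remaining member, *Fosl1*, never exceeded 5 counts.

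The other early transcription factors numbered 21, of which 19 were tested, and *Maff* is counted both here and in the AP-1 family list. In females 4 fell in KO and 2 rose. The fall was largest in *Bhlhe40*, a clock-linked repressor (−1.31, SE 0.14, edgeR adjusted p = 0.000132), followed by *Klf10* (−0.94, 0.00477), *Cebpb* (−0.51, 0.0136) and *Atf4* (−0.48, 0.00337). In males only *Nfil3*, a basic leucine zipper repressor, passed, with a rise of 1.30 (SE 0.22, edgeR adjusted p = 0.0368). It also rose in KO females (0.60, 0.0472). The list's median was −0.07 in females and 0.40 in males. The interaction passed for 7 of the 19, against 25.7% of all genes, and in 6 of them the KO minus WT difference was the lower in females. Between WT sexes 4 were higher and 7 lower in males, and between KO sexes 8 were higher and 1 lower.

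Early effectors and feedback regulators made up 44 genes, of which 42 were tested. In females 10 fell in KO and 1 rose. *Dusp4* (−2.26, SE 0.34, edgeR adjusted p = 0.000497) and *Dusp6* (−1.05, SE 0.15, 0.000365), phosphatases that act on MAPKs like *Dusp1*, were among those that fell, with *Trib1* (−0.59, 0.000564) and *Tob1* (−0.53, 0.00239). *Dusp1* itself did not pass and had a positive value. In males *Rhob*, a small GTPase gene of the early response, was alone in passing, with a rise of 0.77 (SE 0.14, edgeR adjusted p = 0.0468). The median was −0.14 in females and 0.12 in males. The interaction passed for 10 of the 42, each with the lower difference in females. Between WT sexes 7 were higher and 14 lower in males, and between KO sexes 12 were higher and 6 lower.

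All 42 listed genes of the upstream pathways, from growth factor receptors through the MAPK cascades to SRF and CREB cofactors, were tested. In KO females 15 fell and 5 rose, and in KO males 0 passed, with medians of −0.06 and −0.03. In the interaction 5 passed with the higher and 9 with the lower difference in females. Between WT sexes 13 were higher and 9 lower in males, and between KO sexes 17 were higher and 6 lower. By the smallest adjusted p, the female genes were *Map2k1*, an ERK kinase (−0.55, SE 0.09, edgeR adjusted p = 0.000704), *Araf*, a RAF kinase (0.61, SE 0.10, 0.000767), *Prkacb*, a catalytic subunit of protein kinase A (−0.66, SE 0.11, 0.000976), and *Map2k7*, a JNK kinase (0.57, SE 0.10, 0.00100). The counts of all these lists are to be read against the 36.9% of all genes that passed in females and the 0.235% that passed in males. The shares of all genes were 25.7% in the interaction, 36.5% between WT sexes and 43.5% between KO sexes. In females, other measures moved with genotype. The 5 nuclear noncoding RNAs summed to 9396 to 9723 CPM in KO and 3881 to 7009 in WT females, with 4 of 5 higher in KO. Acinar sums were 30187 to 37507 CPM in KO and 48285 to 59220 in WT, with 3 of 9 genes lower, and myoepithelial and smooth muscle sums 95.1 to 115 and 124 to 178 CPM, with 4 of 5 lower. In KO females 3 of 6 macrophage, 2 of 5 adipocyte and 2 of 6 general duct genes were lower as well. Their part in the female list counts was not tested.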

How the data were processed

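Bulk RNA was sequenced from 12 SMGs. Per the labels and methods, the authors made stranded libraries from total RNA depleted of ribosomal RNA (the labels say polyadenylated RNA). They quantified these with Salmon 1.10.1 on GRCm39 and deposited expected counts per gene, not all of them whole numbers. A second deposited table holds a normalized signal, the counts divided by the authors' factor for each gene and library, and was used only for these factors.

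Counts were rounded and analysed with edgeR 4.0.16 (TMM, filterByExpr, quasi-likelihood test, 1 mean per group) in R 4.3.3. The steps were tested on simulated data. The SE was taken as |log2 fold change| over the square root of F. A prior count of 2 entered log2 CPM. Symbols, positions and exon lengths came from Gencode M39, which holds 55563 of 56065 identifiers. Python 3.11.15 and matplotlib 3.10.9 made the figures. All 10 genes are named with every library. Of each further list, up to 4 genes with the smallest adjusted p in females and any called in males are named. The members and lists were chosen with earlier results of these data known. Alternatives were RLE and upper-quartile scaling, the 20 most abundant genes left out of the library sizes, other count filters, fits on 6 libraries, DESeq2 1.42.0, a replicate block, the authors' factors, and each library left out.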

Additional observations from a re-analysis of the deposited data

Results flagged for a closer look

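*Fosb* and *Junb* are given here because their genotype difference differed between the sexes in the interaction test. The female minus the male log2 fold change was −3.65 for *Fosb* (edgeR adjusted p = 0.0478) and −0.97 for *Junb* (edgeR adjusted p = 0.0228). The test passed for 2 of the 10 genes and for 25.7% of all genes. The *Fosb* call was made in 7 of 20 other settings and that of *Junb* in 19 of 21. With the replicate block the *Fosb* call was lost and that of *Junb* was made.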

How the results depend on the processing

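Leaving out 1 library in turn gave 0 to 1 of the 10 genes past the threshold between female genotypes, 0 to 3 between male genotypes, 0 to 4 in the interaction, 2 to 3 between WT sexes and 4 to 8 between KO sexes. Over all genes, in the same order, 4897 to 7071, 13 to 635, 2384 to 5562, 5007 to 6694 and 6193 to 8255 passed. The single call between female genotypes was *Nr4a1* without KO female 1, *Dusp1* without KO female 2 and *Junb* without KO male 1 or without KO male 2. Without a low-count filter, 1 gene passed between female genotypes (*Junb*), 3 between male genotypes (*Fos*, *Fosb*, *Dusp1*) and 4 in the interaction. Of all 30910 genes then tested, 6225, 389 and 4497 passed. With at least 10 counts in every library *Fosb* was not tested, which left 1 gene (*Junb*) in the interaction, beside 4509 of 14172 genes. The interaction count was also 1 with upper-quartile scaling and 3 with DESeq2 and with the authors' factors, in each case with *Junb*. Over all genes 4589 of 17893, 5444 of 18830 and 4192 of 17893 passed. Between KO sexes 6 genes passed with upper-quartile scaling and with the authors' factors, without *Junb* and *Ier2*, and the authors' factors gave 3 between WT sexes, adding *Junb*. Of all 17893 genes, 8039, 6656 and 5341 passed. DESeq2 called 1 gene between male genotypes, beside 392 of 17067 genes. The fit on the 6 female libraries called 1 between female genotypes, beside 5896 of 16859 genes. Without KO male 2 and WT female 3, a setting added after seeing the data, the counts were 1 between female genotypes, 1 in the interaction and 5 between KO sexes. Of all 18342 genes then tested, 4558, 1992 and 6859 passed. With a replicate block 1 gene (*Junb*) passed in the interaction, beside 4354 of 17893 genes, and no other count of the 10 changed. The labels do not say that the numbers pair mice. The correlation of same-numbered deviations ran from −0.13 to 0.27 over 18 pairs of libraries and was above 0.1 in all 3 pairs of KO females with WT males, which enter the interaction with the same sign, and in all 3 of no other 2 groups. With the block the *Fosb* interaction was −3.55 (edgeR adjusted p = 0.0683).

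The 18 sign changes under settings other than a single library left out all concerned values past no threshold in either setting. For *Ier2* between female genotypes the log2 fold change was −0.0061 with RLE, −0.018 without the 20 most abundant genes, −0.19 with the authors' factors, −0.18 without the 2 fat-rich libraries and −0.0097 with DESeq2. For *Ier2* and *Dusp1* between WT sexes the authors' factors gave −0.13 and −0.088. For *Zfp36* between WT sexes the value was −0.016 with RLE, −0.054 with upper-quartile scaling, −0.24 with the authors' factors, −0.063 without the fat-rich libraries and −0.014 with DESeq2, and upper-quartile scaling gave 0.041 between female genotypes and −0.021 between KO sexes. *Fos* between female genotypes was at −0.030 with the replicate block and −0.13 without the fat-rich libraries. In the interaction, *Nr4a1* was at 0.065 with upper-quartile scaling and *Jun* at −0.022 without the fat-rich libraries. The cause was not tested.

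With single libraries left out, the female genotype values ran from −0.33 to 0.89 for *Fos*, −0.65 to 0.62 for *Fosb*, −0.47 to 0.44 for *Atf3*, −0.26 to 0.11 for *Ier2* and −0.23 to 0.12 for *Zfp36*. The male values of *Jun* ran from −0.22 to 0.27. Interaction values ran from −0.36 to 0.17 for *Nr4a1*, −1.07 to 0.044 for *Dusp1* and −0.32 to 0.038 for *Zfp36*. Between WT sexes, *Fos* ran from −0.45 to 0.76, *Dusp1* from −0.15 to 0.37 and *Zfp36* from −0.12 to 0.24. Of the other 1041 values of single genes under all settings, 984 kept direction and side of the threshold, 25 newly passed and 32 no longer passed. Low counts of *Fosb* (3 to 289) and *Fos* (17 to 849), and 3 mice a group, limit the precision.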
